A study of Homo sapiens with 4 samples.

Results

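The data describe 8 complement genes in T24 cells, a human cell line from a urinary bladder cancer: C1R and C1S, the proteases of the first complex of the classical pathway; C3, CFB and CFI, which carry and control the central step of the cascade; and CD46, CD55 and CD59, which protect the cell surface. They were chosen by gene symbol, and 9 gene identifiers of the 57879 in each file carry these symbols, because CFB names both the gene (ENSG00000243649) and a read-through transcript from the neighbouring C2 (ENSG00000244255). Of the 8 genes, 7 passed the filter on low counts and were among the 14573 genes tested, and CFI did not. RNAseq was performed on 2 libraries of control cells, called EV for the empty vector, and 2 libraries of cells expressing TET1-CD, the catalytic domain of TET1, an enzyme that oxidizes 5-methylcytosine in DNA. All 4 libraries came from T24 cells in RPMI with 10% FCS and carry the same source name, T24_induced, which the labels do not explain. By the methods of the study, the domain was delivered in a FLAG-tagged lentiviral vector and the cells were selected with puromycin as a stable population. Whether the 2 libraries of a group came from separate cultures is not stated, so that p-values measure only the spread between these libraries, which may be technical.

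Complement is a cascade of plasma proteins in which proteases activate further components by cleaving them. In the classical pathway C1q binds an immune complex and activates C1r, which cleaves C1s. Cleavage of C3 leaves C3b on the target, where factor B, the product of CFB, binds it and, once cut by factor D, forms the convertase of the alternative pathway, which cleaves more C3. CD55 speeds the decay of convertases, CD46 serves factor I as a cofactor when it cleaves C3b, and CD59 stops C9 from joining the membrane attack complex. CD55 and CD59 are held in the membrane by a GPI anchor. Plasma complement comes mainly from the liver, but many epithelial and tumour cells make components of their own.

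The libraries held 17442143 to 20295266 expected counts. TET1 was at 111 and 83 counts in EV, against 2939 and 3310 in TET1-CD, a log2 fold change of 5.02 (SE 0.08, edgeR's quasi-likelihood test, Benjamini-Hochberg adjusted p = 4.9e-10), and the files list 1 transcript for the gene, so the counts do not separate the domain from the cell's own TET1. The keratins KRT7, KRT8 and KRT18 had between 10759 and 22638 counts in every library, whereas the epithelial cadherin CDH1 had at most 2 counts. Of the 12 urothelial genes, UPK1A, UPK1B, UPK3A, KRT5, KRT13, KRT20 and TP63 had at most 2 counts in any library and UPK2 at most 6, whereas UPK3B had 16 to 38, GATA3 19 to 46, PPARG 363 to 461 and FOXA1 366 to 587. Among the markers of other cells, 9 of 10 hepatocyte genes and 7 of 7 lymphocyte genes had at most 3 counts in every library, and of the 9 monocyte and macrophage genes PTPRC had at most 2 counts and TYROBP and AIF1 had 0 in all 4 libraries. In that last list CD68 was at 494, 577, 411 and 451 counts in EV 1, EV 2, TET1-CD 1 and TET1-CD 2, CD14 at 13, 15, 8 and 12, and ITGAM at 22, 29, 3 and 8. In the same test, which called 19.7% of all genes and 10.0% as higher, 3 of the 5 tested epithelial genes (KRT7, KRT18 and KRT19) and 2 of the 4 tested urothelial genes (GATA3 and FOXA1) were higher in TET1-CD, and 1 of 2 tested fibroblast genes, COL1A1, was higher by a log2 fold change of 1.89 (SE 0.13). Of the monocyte and macrophage genes 3 were tested and 1, ITGAM, was called lower. The summed level of the epithelial list was 2330 to 2350 CPM (counts scaled to library size) in EV and 2620 to 2650 in TET1-CD, that of the urothelial list 44.7 to 47.0 and 54.8 to 57.4, that of the fibroblast list 5.20 to 5.53 and 17.2 to 18, that of the monocyte and macrophage list 26.7 to 36.3 and 24.2 to 24.4, and that of the endothelial list 0.692 to 1.16 and 1.03 to 1.38. Without TET1-CD replicate 1 only KRT19 and COL1A1 of the 6 genes called higher kept their calls, without TET1-CD replicate 2 KRT7 also did, and without EV replicate 1 GATA3 did not (edgeR adjusted p = 0.053). The part of these genes in the results for complement was not tested.

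C1R, CFB and CD59 were lower in TET1-CD than in EV cells, and no complement gene of the 8 was called higher. C1R changed most, to 48.9% of its level in EV, and CFB and CD59 were at 60.5% and 81.8%. C1S was at 76.9%, CD55 at 121%, C3 at 108% and CD46 at 98.1%, none of which passed the test, and CFI was near the limit of detection in all libraries. Thus 3 of the 7 tested genes had an adjusted p under 0.05, all of them lower, where 19.7% of all genes tested were called in either direction and 9.61% were called lower. C1R alone also had a fold change of at least 2 (a differentially expressed gene, DEG), a rule met by 3.77% of all genes tested. The median log2 fold change of the 7 genes was -0.29, beside 0.00 over all genes tested. The 2 libraries of EV did not overlap the 2 of TET1-CD for 6 of the 7 genes by CPM, which was also true of 61.0% of all genes. When 1 library was left out, 25.1% and 24.9% of all genes were called without EV replicate 1 and 2, and 5.48% and 6.77% without TET1-CD replicate 1 and 2, which is the setting for the calls without a library given below. In these bulk libraries, fewer cells that make a transcript and less of it in each cell cannot be told apart.

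**Figure D1:**
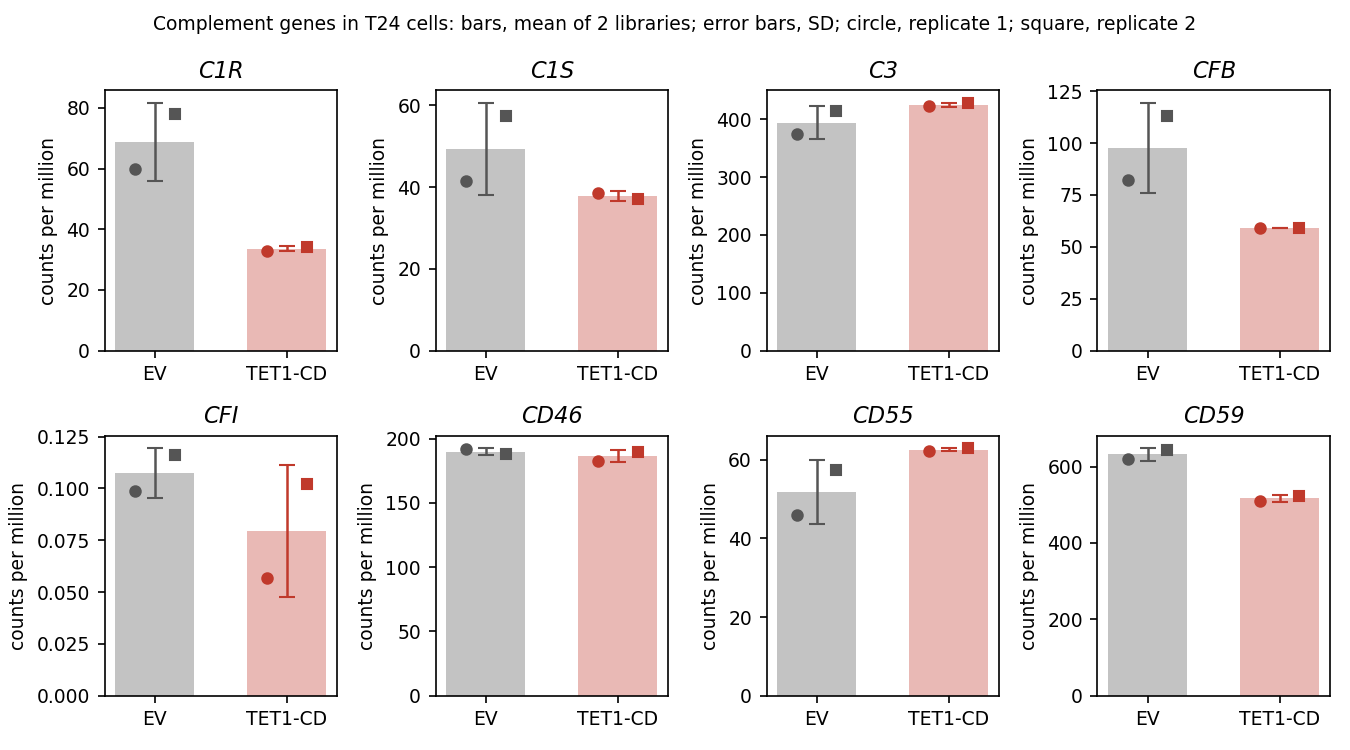
Expression in CPM of the 8 complement genes in T24 cells, 1 panel a gene, each with its own axis from 0. Bars are the mean of 2 libraries, error bars the SD, circles replicate 1 and squares replicate 2. C1R, CFB, C1S and CD59 lay lower in both TET1-CD libraries than in both EV libraries, C3 and CD55 lay higher, and CD46 and CFI overlapped.

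The levels of the genes can be ordered per length, in FPKM summed over the transcripts of a gene. In EV, CD59 was highest at 399 and 403 FPKM, and C3 followed at 84.9 and 85.7. CD46 (58.5 to 59.2), C1R (51.3 to 66.3) and CFB (44.4 to 59.5) formed a run in which neighbours overlapped, and CD55 (22.5 to 27.9) overlapped C1S (17.7 to 23.7). CFI was at 0.05 and 0.06. In TET1-CD CD59 (327 to 336 FPKM) and C3 (92.2 to 93.4) again led, and CD46 followed at 56.5 to 58.9 with no overlap, whereas CFB (28.3 to 32.2), CD55 (28.6 to 31.7) and C1R (27.9 to 29.7) now lay together below CD46. The value of C1R adds up mainly transcripts that cover different pieces of the gene, each scaled to its own length, so its place among the others is less certain.

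C1R encodes C1r, the protease that is activated first when C1q binds. It was at 59.8 and 77.9 CPM in EV and at 33 and 34.2 CPM in TET1-CD, from counts of 1210, 1348, 579 and 670. Both TET1-CD libraries were thus well below both EV libraries, and the EV libraries differed more from each other than the TET1-CD libraries did. The log2 fold change was -1.03 (SE 0.11), a 2.04-fold lower level, with an adjusted p of 2.22e-04 by edgeR's quasi-likelihood test. It kept its call without each library in turn, with log2 fold changes from -1.22 without EV replicate 1 to -0.83 without EV replicate 2.

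In hg19, C1R lies on the minus strand of chromosome 12 (chr12:7187513-7245203). Nearly all of its counts were in transcripts of 2 pieces that have 51795 bases between them in that build. ENST00000542285, with 11 exons, spans both pieces and had 42.2, 41.1, 21.0 and 0 counts, at most 3.63% of the gene's counts. The 5′ piece is transcript ENST00000542220, with 7 exons and a coding length of 1038 bases, and held 51.2% to 56.6% of the gene's counts. The 3′ piece, transcripts ENST00000602480 and ENST00000602286 with 2 exons each, held 41.1% to 44.4%. The 5′ piece was at 648 and 690 counts in EV, against 318 and 379 in TET1-CD, and the 3′ piece was at 499 and 599 against 238 and 285. Both pieces fell when they were counted as separate genes, with log2 fold changes of -0.94 (SE 0.11, edgeR adjusted p = 4.58e-04) and -1.07 (SE 0.15, edgeR adjusted p = 0.00108). The distance between the pieces was not checked in another build. Whether the pieces are separate RNAs or parts of 1 RNA that the annotation or the build splits was not tested. They are therefore not 2 independent results. The 5′ piece overlaps C1RL, a gene for a C1r-like protease on the same strand, over 3021 bases, so that counts could pass between these genes. C1RL was itself lower, and the sum of C1R and C1RL had a log2 fold change of -0.97 (SE 0.10, edgeR adjusted p = 1.72e-04).

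C1S encodes C1s, the substrate of C1r and the protease that cleaves C4 and C2. It lies on the plus strand of chromosome 12 (chr12:7096351-7178336). It was at 41.4 and 57.3 CPM in EV and at 38.6 and 37 CPM in TET1-CD. The EV library of replicate 1 was close to the TET1-CD libraries and that of replicate 2 stood above them. The log2 fold change of -0.38 (SE 0.13) did not pass the threshold (edgeR adjusted p = 0.0625). Its call rested on the EV libraries: it was -0.61 without EV replicate 1 (edgeR adjusted p = 6.40e-05) and -0.13 without EV replicate 2 (edgeR adjusted p = 0.216), and adjusted p-values over its 14 alternatives ran from 6.40e-05 to 0.986. Its annotated span overlaps EMG1 and LPCAT3, but the 2 main transcripts of C1S begin downstream of both.

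C3 is the protein on which all pathways of complement converge. It was at 374 and 414 CPM in EV and 422 and 427 CPM in TET1-CD (chr19:6677715-6730573, minus strand). The TET1-CD libraries were slightly above those of EV, by a log2 fold change of 0.11 (SE 0.06, edgeR adjusted p = 0.246). Without EV replicate 2 it was called, at 0.18 (edgeR adjusted p = 0.00546), and without EV replicate 1 it was 0.03 (edgeR adjusted p = 0.683), within a range of 0.00546 to 0.705 over its 14 alternatives.

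CFB encodes factor B, the partner of C3b in the convertase of the alternative pathway (chr6:31895475-31919861, plus strand). It was at 82.4 and 113 CPM in EV and at 59.1 CPM in both TET1-CD libraries, from counts of 1667, 1963, 1038 and 1158. The TET1-CD libraries were below both EV libraries, and EV replicate 2 was higher than EV replicate 1. The log2 fold change was -0.72 (SE 0.12), a 1.65-fold lower level (edgeR adjusted p = 0.00287). It was called without each library in turn, at -0.95 without EV replicate 1 and -0.48 without EV replicate 2. C2, which overlaps the annotated span of CFB on the same strand, had 3, 4, 16 and 8 counts, and the read-through identifier had 0, 0, 0 and 3 counts, far below the difference between the groups for CFB.

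The promoter of CFB is shown because CFB is 1 of the 3 genes that fell and 86.0%, 86.7%, 90.7% and 85.5% of its counts in EV 1, EV 2, TET1-CD 1 and TET1-CD 2 belonged to transcripts that begin within 100 bases of the RefSeq start site. The stretch runs from -165 to -59 relative to that site, on the plus strand (RefSeq, GRCh38.p14, chr6:31945930-31946036), and is written 5′ to 3′. Capitals mark a match to TTTC and TTTC with any 2 bases between, the letters of an interferon-stimulated response element, and then an overlapping pair of matches to GGAANNTCC, read from the other strand as GGANNTTCC and related to the kappaB consensus, and to TTCNNNGAA, the letters bound by STAT dimers.
CFB promoter: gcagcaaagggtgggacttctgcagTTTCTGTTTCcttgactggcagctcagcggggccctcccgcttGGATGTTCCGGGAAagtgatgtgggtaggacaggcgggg
Both strands were searched over windows of 300 bases, and of the 35116 RefSeq windows 3.57% held the interferon element, 4.56% GGAANNTCC and 7.66% TTCNNNGAA. The window of CFB held 7 CpG, where the median of all windows was 14. A match is a description of the letters and no measurement of binding.

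CFI encodes factor I, the protease that inactivates C3b and C4b. It had 2, 2, 1 and 2 counts in EV 1, EV 2, TET1-CD 1 and TET1-CD 2, or 0.0988, 0.116, 0.057 and 0.102 CPM. The groups overlapped and the gene was not tested, so a difference was not detectable at this depth.

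CD59 encodes protectin, the GPI-anchored inhibitor of the membrane attack complex (chr11:33719807-33757991, minus strand). It was at 620 and 644 CPM in EV and 510 and 523 CPM in TET1-CD, from counts of 12546, 11139, 8956 and 10246. The libraries of each group lay close together and the groups did not overlap. The log2 fold change was -0.29 (SE 0.05), a 1.22-fold lower level (edgeR adjusted p = 0.00423). The call was lost without TET1-CD replicate 1 (-0.27, edgeR adjusted p = 0.146) and without TET1-CD replicate 2 (-0.31, edgeR adjusted p = 0.0801), and adjusted p-values over its 14 alternatives ran from 3.10e-06 to 0.293.

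RefSeq gives 4 promoter windows for CD59, and 99.0% to 99.6% of the counts of CD59 belonged to transcripts that begin within 100 bases of the start sites of 2 of them, which held 18 and 22 CpG, between the median of 14 and the 75th percentile of 28 over all windows. The other 2 windows held 1 CpG each and at most 0.47% of the counts. The stretch shown, from the window with 18 CpG, runs from -153 to -41 relative to its start site on the minus strand (RefSeq, GRCh38.p14, chr11:33736520-33736632). In hg19 that site is chr11:33758025, and the site of the window with 22 CpG is chr11:33757969. The main transcript, ENST00000395850, with 59.0% to 62.0% of the counts, begins at chr11:33757968, beside the second site. Capitals mark a match to TTCNNNGAA and one to GGAANNTCC read from the other strand. Counted from the second site, these lie at -184 to -176 and -130 to -122.
CD59 promoter: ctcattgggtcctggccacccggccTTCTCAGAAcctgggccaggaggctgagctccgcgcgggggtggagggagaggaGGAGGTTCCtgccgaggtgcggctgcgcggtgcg
The other matches were few. C1R had 2 windows, with 10 and 8 CpG. Transcripts that begin within 100 bases of the start site of the former held few of its counts. Their shares were 5.25%, 4.31%, 3.92% and 0.83% in EV 1, EV 2, TET1-CD 1 and TET1-CD 2. The latter held TTCCTGGAA at -86 to -78 from a start site within 100 bases of which no counted transcript began. The other window of C1R and those of CD46, CD55 and CFI held none of the 3 letter patterns. CD46 had 25 CpG in each of 2 windows, CD55 had 19 and CFI had 2. C3 and C1S were not searched. The CpG counts of the 3 genes that fell overlapped those of the others, those of C1R being from windows where few of its counts began. No methylation was measured in these libraries.

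CD55 encodes decay-accelerating factor, the other GPI-anchored regulator (chr1:207494853-207534311, plus strand). It was at 46.0 and 57.5 CPM in EV and 62.3 and 62.9 CPM in TET1-CD. CD55 lay higher in each TET1-CD library than in either EV library, by a log2 fold change of 0.28 (SE 0.09, edgeR adjusted p = 0.0602), which did not pass the threshold. Without EV replicate 2 it was called at 0.44 (edgeR adjusted p = 6.79e-05), and without EV replicate 1 it was 0.12 (edgeR adjusted p = 0.215), the range over its 14 alternatives being 6.79e-05 to 0.475. The direction was opposite to that of CD59, and the difference between these genes was not tested.

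CD46 encodes membrane cofactor protein (chr1:207925402-207968858, plus strand). It was at 192 and 188 CPM in EV and 183 and 190 CPM in TET1-CD, with groups that overlapped. The log2 fold change was -0.03 (SE 0.05, edgeR adjusted p = 0.760), and it was between -0.06 and 0.14 under its 14 alternatives.

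The EV libraries were not alike for several of these genes, and they also differed more than the TET1-CD libraries over all genes tested. The chi-square per gene, on counts against library totals, was 6.41 between the EV libraries and 2.75 between those of TET1-CD. The ratio of replicate 2 to replicate 1 by CPM was 1.38 for CFB and C1S, 1.30 for C1R, 1.25 for CD55 and 1.11 for C3 in EV, whereas in TET1-CD all 7 ratios lay between 0.957 and 1.04. Over all genes tested, 6.48% had a larger ratio in EV than C1S, 6.68% than CFB and 10.1% than CD55. For the others the ratio in EV was 1.04 (CD59) and 0.978 (CD46).

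**Figure D2:**
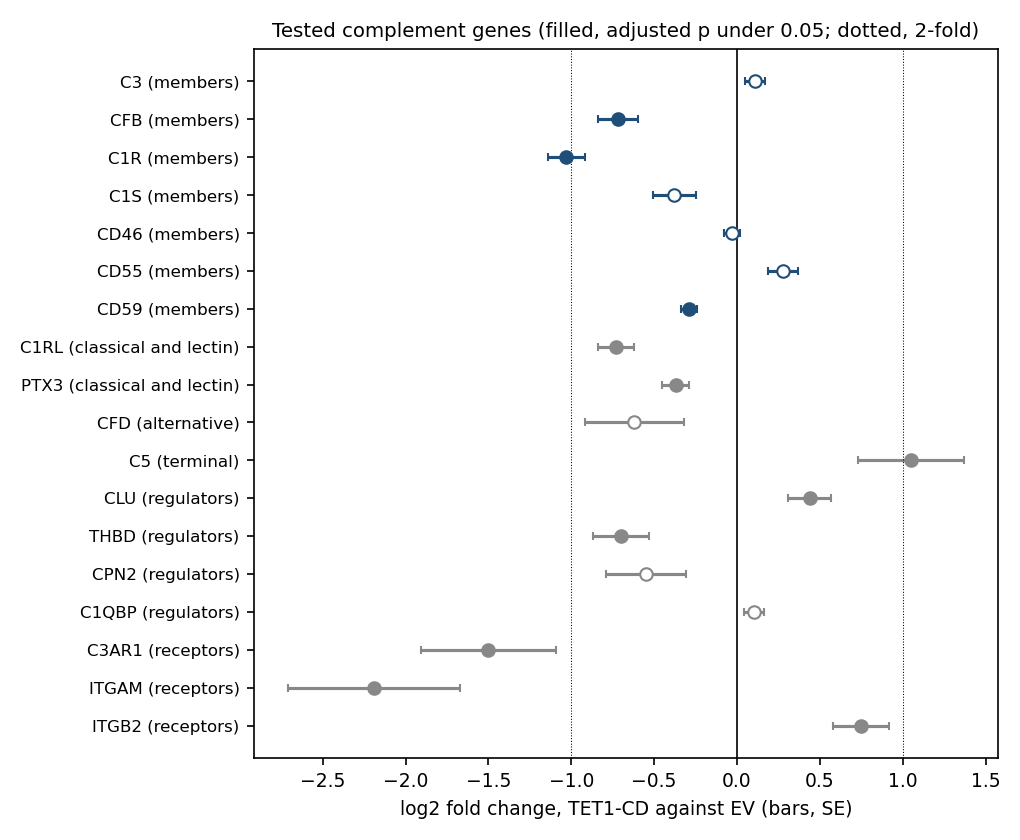
Log2 fold change of TET1-CD against EV for the 7 tested complement genes (blue) and tested genes of the other complement lists that are reported here (grey), from edgeR, with SE as bars. Filled points had an adjusted p under 0.05 and dotted lines mark a 2-fold change: C1R, ITGAM and C3AR1 lie past it on the lower side and C5 on the higher side.

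To ask whether the change in a gene came from 1 of its transcripts, the expected counts of 43213 transcripts were tested. None of the 42 tested transcripts of the complement genes was called, with edgeR adjusted p-values of 0.232 to 0.995, and 12 of them had an unadjusted p under 0.05, of which 11 were lower. Over all transcripts 0.00231% were called and 11.2% had an unadjusted p under 0.05. The 3 main transcripts of CD59 had log2 fold changes of -0.26 (ENST00000395850), -0.37 (ENST00000351554) and -0.23 (ENST00000426650), and held 59.0% to 62.0%, 25.1% to 27.2% and 9.58% to 11.6% of its counts. The main transcript of CFB, ENST00000425368, held 82.9% to 89.9% of the counts and was at -0.69 (SE 0.18). C3 was carried by ENST00000245907 at 96.9% to 98.5%. CD55 was spread over more forms, with 45.8% to 60.0% in ENST00000367064 and at most 13.5% in any other.

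The 2 main transcripts of C1S have the same coding length of 2064 bases and the same last base, chr12:7178336. They differ in their first base, 7167819 for ENST00000328916 and 7168022 for ENST00000360817, and in their spliced length, 2972 and 2682 bases. ENST00000328916 held 44.2% and 49.9% of the counts of the EV libraries, against 39.8% and 37.3% in TET1-CD, and ENST00000360817 held 46.6% and 43.3% against 55.5% and 58.7%. Their log2 fold changes were -0.68 (SE 0.26) and -0.03 (SE 0.16), neither of which was called. The shares of the groups did not overlap, but how often this holds for the transcripts of other genes was not counted. The difference between the transcripts was not tested.

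CD46 is made in forms that differ by 2 exons, which are shown because they set what the protein carries. The 45-base exon (hg19, chr1:207941124-207941168, plus strand) codes for part of the segment rich in serine, threonine and proline next to the membrane. The 93-base exon (chr1:207963598-207963690) decides which of the alternative cytoplasmic tails the protein ends with, and the coding 49 bases of it (chr1:207963598-207963646) are given without the stop codon.
CD46 45-base exon: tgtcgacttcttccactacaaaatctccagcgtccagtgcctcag
CD46 93-base exon, coding part: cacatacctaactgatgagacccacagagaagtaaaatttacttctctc
The 4 transcripts that hold or lack these exons are ENST00000367042 with both, ENST00000354848 with the 45-base exon, ENST00000367041 with the 93-base exon and ENST00000357714 with neither. They made up 86.2% and 87.7% of the counts of CD46 in EV and 91.7% in each TET1-CD library. Outside them, ENST00000469535, a form that retains an intron, held 9.75% and 7.75% in EV and 5.59% and 5.74% in TET1-CD. It had a log2 fold change of -0.65 (SE 0.18) and was not called. Of the counts of the 4 transcripts, 57.6% and 63.7% in EV and 64.5% and 68.1% in TET1-CD belonged to those with the 45-base exon. That is 60.6% ± 4.31 (SD, n = 2) and 66.3% ± 2.53 (SD, n = 2). The groups did not overlap, but EV replicate 2 was closer to TET1-CD replicate 1 than to EV replicate 1. How often such shares do not overlap in other genes was not counted, and the difference was not tested. For the 93-base exon the shares were 61.5% and 64.0% in EV and 59.1% and 61.8% in TET1-CD, which overlapped. These shares come from the authors' estimated counts per transcript, and their depth in reads across the exons is unknown.

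**Figure D3:**
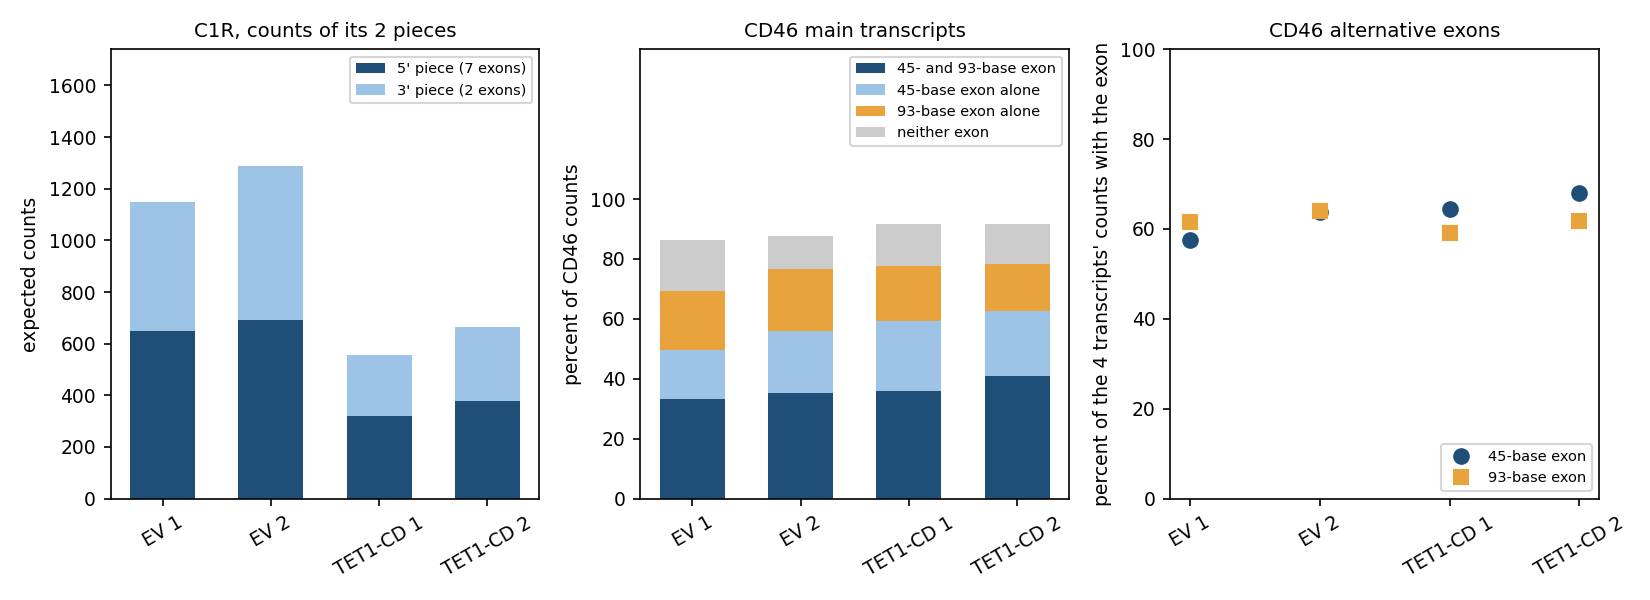
Left, expected counts of the 5′ and 3′ pieces of C1R stacked in each library, both lower in the TET1-CD libraries. Middle, percent of CD46 counts in its 4 main transcripts, named by the 45-base and 93-base exons they hold; right, percent of those transcripts' counts with each exon (circles 45-base, squares 93-base), which lies between 57.6% and 68.1% in every library.

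The rest of the cascade was largely not expressed in these cells. Of 55 further complement genes in 5 lists, 19 had 0 counts in all 4 libraries, 30 had at most 3 counts in each, and 12 passed the filter. Of these 12, 8 were called, 3 higher and 5 lower, beside 19.7% of all genes tested. Fewer were called in other settings, with 2 by DESeq2, where 9.13% of all genes were called, and 1 or 2 when a TET1-CD library was left out.

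Among the recognition molecules and proteases of the classical and lectin pathways, 2 of 18 genes were tested. C1QA, C1QB, MASP1, MBL2, FCN1, FCN2 and FCN3 had 0 counts in all libraries, C1QC had at most 1, and C4A and C4B, near-identical copies between which reads are uncertain, had at most 5. C1R and C1S were thus transcribed while the chains of C1q, which carries these proteases, and C4, which C1s cleaves, were at or near 0. C1RL was at 333, 327, 190 and 205 counts and was lower by a log2 fold change of -0.73 (SE 0.11, edgeR adjusted p = 0.00199), and it kept its call without each library in turn. PTX3, a soluble pentraxin that binds C1q, was at 75.8 and 90.4 FPKM in EV and 64.6 and 65.2 in TET1-CD, a log2 fold change of -0.37 (SE 0.08, edgeR adjusted p = 0.0103). The call on PTX3 was lost without TET1-CD replicate 1 (edgeR adjusted p = 0.109) or 2 (edgeR adjusted p = 0.0836), within 1.42e-07 to 0.109 over its 13 alternatives.

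In the alternative pathway, 2 of 8 genes were tested and neither passed. CFD, the gene of factor D, which cuts factor B, was at 38, 47, 28 and 27 counts, with a log2 fold change of -0.62 (SE 0.30, edgeR adjusted p = 0.184). Of the terminal components only C5 was tested, and C6, C8B and C9 had 0 counts. C5 was at 23 and 17 counts in EV, against 45 and 37 in TET1-CD, a log2 fold change of 1.05 (SE 0.32, edgeR adjusted p = 0.0418). It lost its call without any 1 of the 4 libraries, with adjusted p-values from 0.066 without EV replicate 1 and 0.087 without EV replicate 2 to 0.108 without TET1-CD replicate 2 and 0.361 without TET1-CD replicate 1.

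Of 13 other regulators 4 were tested and 2 were called, beside 19.7% of all genes. THBD, which encodes thrombomodulin, was at 262 and 172 counts in EV, against 138 and 123 in TET1-CD, a log2 fold change of -0.70 (SE 0.17, edgeR adjusted p = 0.0155), and CLU, which encodes clusterin, an inhibitor of the terminal complex, was at 231, 260, 317 and 346 counts (0.44, SE 0.13, edgeR adjusted p = 0.0410). Without TET1-CD replicate 2 THBD was at -0.55 (edgeR adjusted p = 0.142). CLU lost its call without EV replicate 1 (0.24, edgeR adjusted p = 0.116), TET1-CD replicate 1 (edgeR adjusted p = 0.216) or TET1-CD replicate 2 (edgeR adjusted p = 0.166), and these p-values ran to 0.142 for THBD and 0.330 for CLU over 13 alternatives each. SERPING1, the inhibitor of C1r and C1s, had 0 counts in EV and 1 in each TET1-CD library, and C4BPA and CSMD1 had 0.

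Of 9 receptors 3 were tested and all 3 were called by edgeR, beside 19.7% of all genes, whereas DESeq2, which called 9.13% of all genes, gave adjusted p-values of 0.0924 for ITGAM, 0.152 for C3AR1 and 0.197 for ITGB2. ITGAM, the alpha chain of complement receptor 3, was at 22 and 29 counts in EV, against 3 and 8 in TET1-CD, a log2 fold change of -2.19 (SE 0.52, edgeR adjusted p = 0.0165), and C3AR1, the receptor of C3a, was at 29, 45, 11 and 15 counts (-1.50, SE 0.41, edgeR adjusted p = 0.0282). Outside the rule for named genes, ITGB2, the beta chain shared by leukocyte integrins, was higher at 70, 57, 94 and 117 counts (0.75, SE 0.17, edgeR adjusted p = 0.0147) and is named after its value was seen. Without TET1-CD replicate 1 the adjusted p-values of edgeR were 0.172 for ITGAM, 0.192 for C3AR1 and 0.0724 for ITGB2, and without TET1-CD replicate 2 they were 0.0533, 0.120 and 0.140. Without EV replicate 2 they were 0.0553 for ITGAM and 0.147 for C3AR1 (log2 fold change -1.03).

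**Figure D4:**
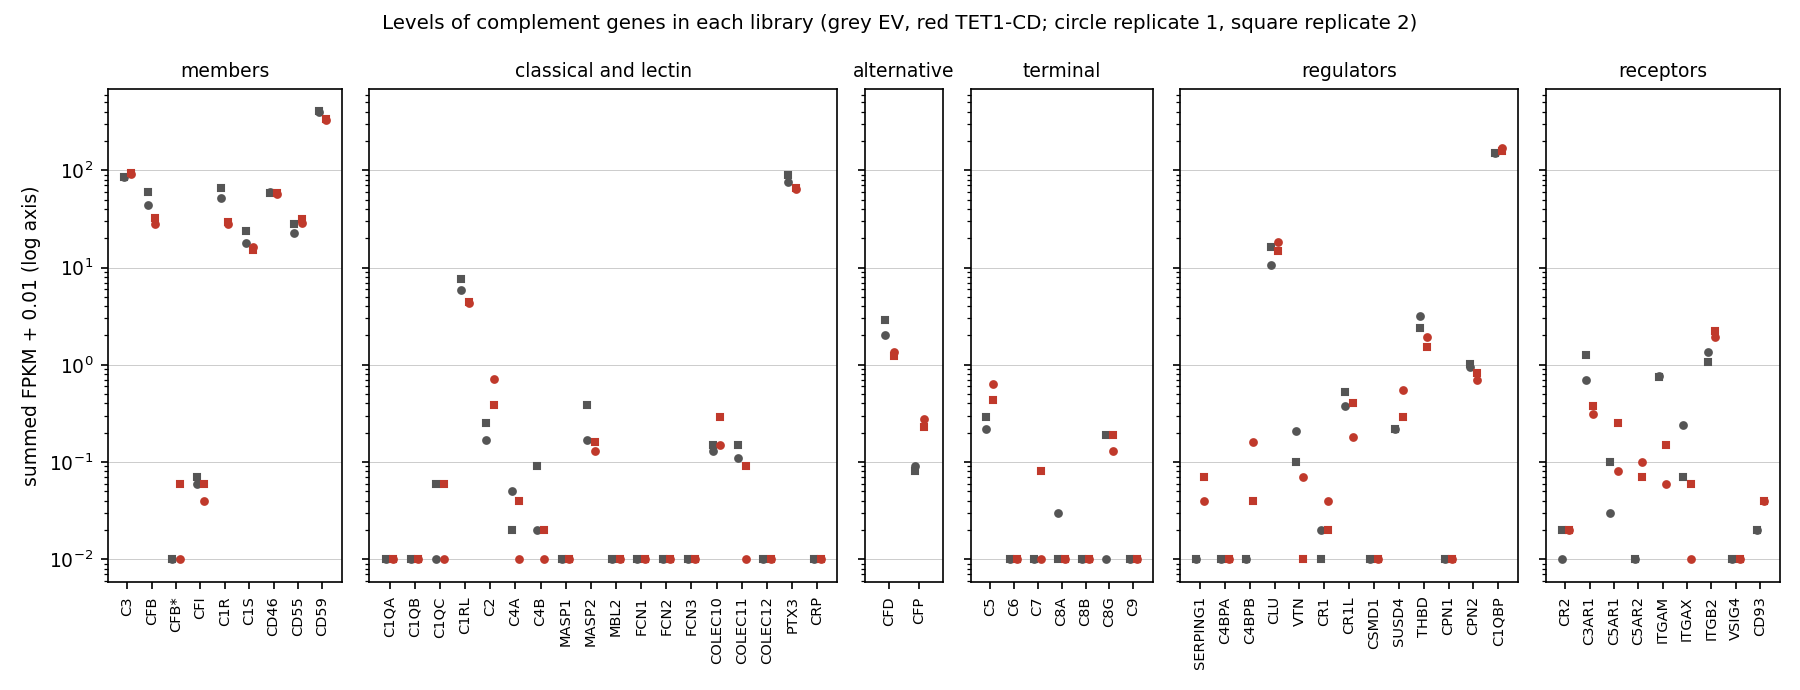
Summed FPKM plus 0.01, on a log axis, of the complement genes and of the genes reported here from the 5 further lists in each library (grey EV, red TET1-CD, circles replicate 1, squares replicate 2); points on the lowest line are at 0 and CFB* is the read-through identifier. Of the genes of the 5 lists, PTX3, CLU and C1QBP lie above 10 FPKM in all libraries, as do 7 of the 8 complement genes.

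Because CD55 and CD59 reach the surface through a GPI anchor, 28 genes of its synthesis and attachment were read, of which 27 were tested. PIGQ, a subunit of the enzyme of the first step, was lower at 605, 530, 389 and 435 counts (-0.45, SE 0.08, edgeR adjusted p = 0.00469), and PGAP1, which remodels the anchor, was lower at 435, 325, 273 and 301 counts (-0.38, SE 0.10, edgeR adjusted p = 0.0279). The other 25 did not pass, their list having a median log2 fold change of -0.01 and a share of calls of 7.41% beside 19.7% over all genes. PIGQ was no longer called without TET1-CD replicate 1 (edgeR adjusted p = 0.0564) or 2 (edgeR adjusted p = 0.0513), and PGAP1 without EV replicate 1 (edgeR adjusted p = 0.0562), TET1-CD replicate 1 (edgeR adjusted p = 0.173) or 2 (edgeR adjusted p = 0.188).

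Cytokines raise the transcription of C1R, C1S, C3 and CFB in many cells, so 24 genes of such cytokines, receptors and factors were read. Of 22 tested, 6 were called, 3 higher and 3 lower, a share of 27.3% beside 19.7% over all genes. IRF1, a transcription factor induced by interferon, was at 849 and 738 counts in EV, against 526 and 566 in TET1-CD, a log2 fold change of -0.52 (SE 0.07, edgeR adjusted p = 0.00116). IL1R1, the signalling receptor of interleukin 1, was at 249 and 197 counts in EV, against 325 and 374 in TET1-CD (0.66, SE 0.10, edgeR adjusted p = 0.00194). Both kept their calls without each library in turn. Of the other calls, named after their values were seen, CEBPB (-0.37) was lower and IL1B (0.36) and STAT3 (0.17) were higher, and without TET1-CD replicate 1 edgeR called none of these 3 (adjusted p = 0.107, 0.126 and 0.249). Without TET1-CD replicate 2 STAT3 lost its call (edgeR adjusted p = 0.427). IFNG had 0, 3, 0 and 0 counts and OSM had 0 throughout, whereas IL6 was at 431 to 625 FPKM and did not pass (0.17, SE 0.12, edgeR adjusted p = 0.340).

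The protein-coding genes whose pattern over the 4 libraries was nearest to each called gene were found by the Euclidean distance of log2 CPM centred on the mean of a gene, among 12528 genes. For C1R they were SYNGR3 at a distance of 0.0516, IFI6 at 0.0752 and TNFAIP2 at 0.0908. For CFB they were IFI35 at 0.0801, OAS2 at 0.0831 and LAMP3 at 0.0887. For CD59 they were POR at 0.00902, TRNP1 at 0.0128 and C11orf80 at 0.0135. Of these, TRNP1 (edgeR adjusted p = 0.0589) and C11orf80 (edgeR adjusted p = 0.0811) were not called themselves. The distances are not scaled to the size of a change, so they cannot be compared between C1R, CFB and CD59. The distances rest on these 4 libraries alone.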

How the data were processed

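RNAseq libraries of T24 cells (2 EV, 2 TET1-CD) were read from the authors' tables per transcript. The submitters' processing notes name cutadapt 1.9.1, HISAT2 2.0.1, HTSeq 0.6.1, DESeq2 and hg19, and which tool gave the estimated counts is not given in the sources used here. The authors deposited expected counts (estimated fragments per transcript) and FPKM (per transcript length and library size). Here both were summed per gene identifier, and counts were rounded. TET1-CD was compared with EV by edgeR 4.0.16 in R 4.3.3 (quasi-likelihood test, TMM, filterByExpr, Benjamini-Hochberg over all genes tested), with a threshold of 0.05. The SE was obtained from edgeR's F statistic, as log2 fold change over root F. TMM factors were 0.9934 to 1.005. Levels between genes are FPKM, and CPM uses TMM library sizes.

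On simulated data for this comparison (14326 genes, 200 genes changed), 81.8% of 2-fold and 96.9% of 4-fold changes were recovered. The simulated spread followed the trend over genes and was the same in both groups. Smaller changes, such as those of CFB, CD59, C1S, CD55, C3 and CD46, were not simulated, so their recovery is unknown. Alternatives used DESeq2 1.42.0, limma 3.58.1 (voom, and log2 FPKM plus 0.1 or 1), other scalings and filters, a replicate block and leaving out each library. Same-numbered libraries showed no shared shift over the genes tested (correlation of replicate differences between the groups 0.00713). Whether they were prepared together is not stated. The members and lists were chosen with earlier results of these data known. Genes of other lists are named where they were DEGs, at most 5 a list, or, in a list with no DEG, the 2 called with the smallest p, and results of some listed genes are not reported here. Exon structures are from GENCODE 44 lifted to GRCh37 (116 of 124 transcripts of the members found), and promoter windows from RefSeq (GRCh38.p14), 11 windows of 6 members.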

Additional observations from a re-analysis of the deposited data

How the results depend on the processing

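C1R and CFB kept their calls in every gene-level setting tried, and CD59 in all but the 2 that left out a TET1-CD library. Taking the most abundant transcript in place of the gene, none was called: C1R -0.94, CFB -0.69 and CD59 -0.26, while CD46 turned from -0.03 to 0.14, neither called; 1 of 43213 transcripts passed in that fit. C1S was called with no filter on low counts (-0.38) and with the replicate block (-0.37), and CD55 with library size only (0.29), no filter (0.28) and the block (0.28). The number of the 7 genes called was 3, against 5 with no filter and 5 with the replicate block, and 2 to 5 without 1 library. The block changed no other call of the 7 genes, called 3235 genes in all, and among the genes named took the call from STAT3 alone. Over all genes, 2865 were called, and 1468 by DESeq2, 1447 on FPKM with 0.1 added and 832 to 3779 without 1 library. The number of DEGs was 549, and 332 by DESeq2, 332 with 10 counts in every library, 326 on FPKM and 323 to 617 without 1 library. Of the 55 further complement genes 8 were called, and 2 by DESeq2, 3 on FPKM and 1 to 7 without 1 library. Without 1 library, log2 fold changes were 0.03 to 0.18 for C3, -0.61 to -0.13 for C1S, 0.12 to 0.44 for CD55 and -0.33 to -0.27 for CD59. The settings with C1R in 2 pieces or summed with C1RL were chosen after seeing the data. With 2 libraries a group, a lone library is assumed to vary like the other group; the causes of these changes were not tested.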
